A study of Homo sapiens with 6 samples.

Results

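The genes described here encode enzymes, membrane proteins and regulators of the lysosome, together with the transcription factors that control them. They were taken from the deposited table of gene counts by symbol. All 40 symbols of the list were found among the 22354 loci of the table, and all 40 passed the filter on low counts, which kept 14860 loci. RNA was sequenced from 6 samples of Htori-3.1, a cell line derived from normal human thyroid, labelled Htoris-3.1 in the deposit. The label of 3 samples is control (genotype wild type), and 3 are labelled sgRNA Bmal1 (genotype BMAL1 knock out). Cells of the latter group were infected with lentivirus carrying Cas9 and an sgRNA against BMAL1, selected with puromycin and picked as single clones, so that the knockout and a difference between clones cannot be told apart. Cells of both groups had been exposed to etoposide, an inhibitor of topoisomerase II that damages DNA and was used to induce senescence, at 2 μM. Its duration is 12 h in the treatment label and 24 h in the treatment protocol and the methods. No untreated sample enters this comparison, so the values do not show a response to etoposide.

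Lysosomes are acidic organelles in which glycosidases, sulfatases, proteases and lipases degrade material from endocytosis and autophagy. A proton pump, the V-ATPase, keeps the lumen acidic, and heavily glycosylated membrane proteins line the limiting membrane. The MiT/TFE factors TFEB, TFE3 and MITF bind a palindromic E-box in the promoters of many of these genes, named the CLEAR element, and raise their transcription. The core of that element is also the E-box bound by BMAL1 with its partner CLOCK. Senescent cells are often recognised by a larger lysosomal compartment, and the senescence-associated β-galactosidase stain reads the lysosomal enzyme encoded by GLB1. Whether the transcripts of this compartment differed between the groups is the question of the comparison.

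The control libraries held between 26893063 and 28513703 counts, and the libraries labelled BMAL1 knockout between 29860233 and 43563391. Expression is given as CPM, the counts of a gene scaled to a common library size after TMM normalization between libraries. The BMAL1 transcript itself was not lower with the knockout label, and read counts of a gene do not show whether its protein is lost. The methods name a western blot as the check of the knockout clones, and protein was not measured here. The paper also shows a BMAL1 blot of control and knockout lines, and reports lower NFKBIA and higher CDKN1A in the knockout group. The transcript was higher where a knockout is named, by 0.58 on the log2 scale (SE, standard error, 0.11, adjusted p = 0.0204 in edgeR after Benjamini-Hochberg correction). That adjusted p was over 0.05 without control replicate 1, control replicate 2, knockout replicate 2 or knockout replicate 3, where the log2 fold change was 0.50, 0.55, 0.55 and 0.56. Fold changes are given as knockout label over control label throughout. The name knockout replicate stands for a library with the BMAL1 knockout label. Of the thyroid markers, PAX8 was at 133 ± 15.4 and 110 ± 19.1 CPM and FOXE1 at 47.99 ± 0.717 and 39.99 ± 3.29 CPM (control and knockout label, SD, n = 3 each), with adjusted p-values of 0.259 and 0.139 (edgeR, Benjamini-Hochberg), whereas NKX2-1 had no read and TG, TSHR and SLC5A5 stayed under 1 CPM. The summed level of 5 epithelial markers, nearly all KRT8 and KRT18, was 2223 to 2313 CPM in the control libraries and 1722 to 1816 CPM in the others. KRT18 passed the test (log2 fold change -0.50, adjusted p = 0.00583, edgeR, Benjamini-Hochberg). The means of KRT19 (7.67 and 8.97 CPM), EPCAM (0.125 and 0.381 CPM) and CDH1 (0.233 and 0.300 CPM) were higher with the knockout label, with overlapping groups. Sums of 5 fibroblast markers, nearly all COL1A1, overlapped (770 to 907 and 699.6 to 966 CPM). DCN and LUM had no read in any library, and COL1A2 and PDGFRA stayed under 1 CPM. The sums of 4 endothelial markers were 1.83 to 2.21 and 1.24 to 1.72 CPM. Among 7 macrophage markers, a cell type rich in lysosomes, AIF1 and TYROBP had no read in any library. The summed level of the 7 was 6.82 to 7.18 CPM in the control libraries and 3.19 to 3.88 CPM in those labelled BMAL1 knockout. Most of it was PTPRC (6.397 ± 0.145 and 2.36 ± 0.341 CPM), which passed the test (log2 fold change -1.43, adjusted p = 0.00127, edgeR, Benjamini-Hochberg). CD14 was at 0.413 ± 0.202 and 0.835 ± 0.399 CPM, and CSF1R had no read in the control libraries and 4, 5 and 9 in the others. The part of these markers in the results was not tested.

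None of the 40 genes passed an adjusted p of 0.05, neither upward nor downward, where 2.51% of all 14860 genes did (1.08% higher and 1.43% lower). In these bulk samples fewer cells and less RNA per cell cannot be told apart. Of the 373 genes called over all loci 43.2% were higher, a share that was 54.4% with scaling by library size only, 31.7% with each library's GC trend removed and 30.4% with the replicate number as a block as well. The count was 166, 113 and 141 without control replicate 1, 2 and 3, 633 without knockout replicate 1 and 162 without knockout replicate 2. At an unadjusted p under 0.05, edgeR counted 3 of the 40 genes, CTSH on the higher side and CTSB and NAGLU on the lower side, which is 7.5% beside 16.9% of all genes (9.08% higher and 7.78% lower). DESeq2 placed 1 of the 40, CTSH, under an adjusted p of 0.05, beside 4.47% of the genes it tested (1.8% higher and 2.67% lower). With limma-voom 0 of the 40 were called, beside 255 of 14860 genes (102 higher and 153 lower). The log2 fold changes ran from -0.21 for NAGLU to 0.44 for CTSH, and 17 lay above and 23 below 0. Their median was -0.02, beside 0.01 over all genes tested. The median size of a fold change, regardless of direction, was 0.10 on the log2 scale among the 40 genes and 0.12 among all genes. For 38 of the 40 genes the 95% interval of the fold change lay within 1.5-fold in either direction, as it did for 72.5% of all genes; CTSH and TFEB were the exceptions. Most of the 40 are well expressed, 34 of them above the median of all genes tested, and a higher count narrows the interval. The part of expression level in these narrow intervals was not tested. For 8 of the 40 genes the ranges of both groups were separate, 3 higher and 5 lower, which is 20% beside 23.3% of all genes (11.8% higher and 11.5% lower). Each of these 8 genes had an exact two-sided permutation p of 0.1, the smallest that 3 libraries a group allow.

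**Figure D1:**
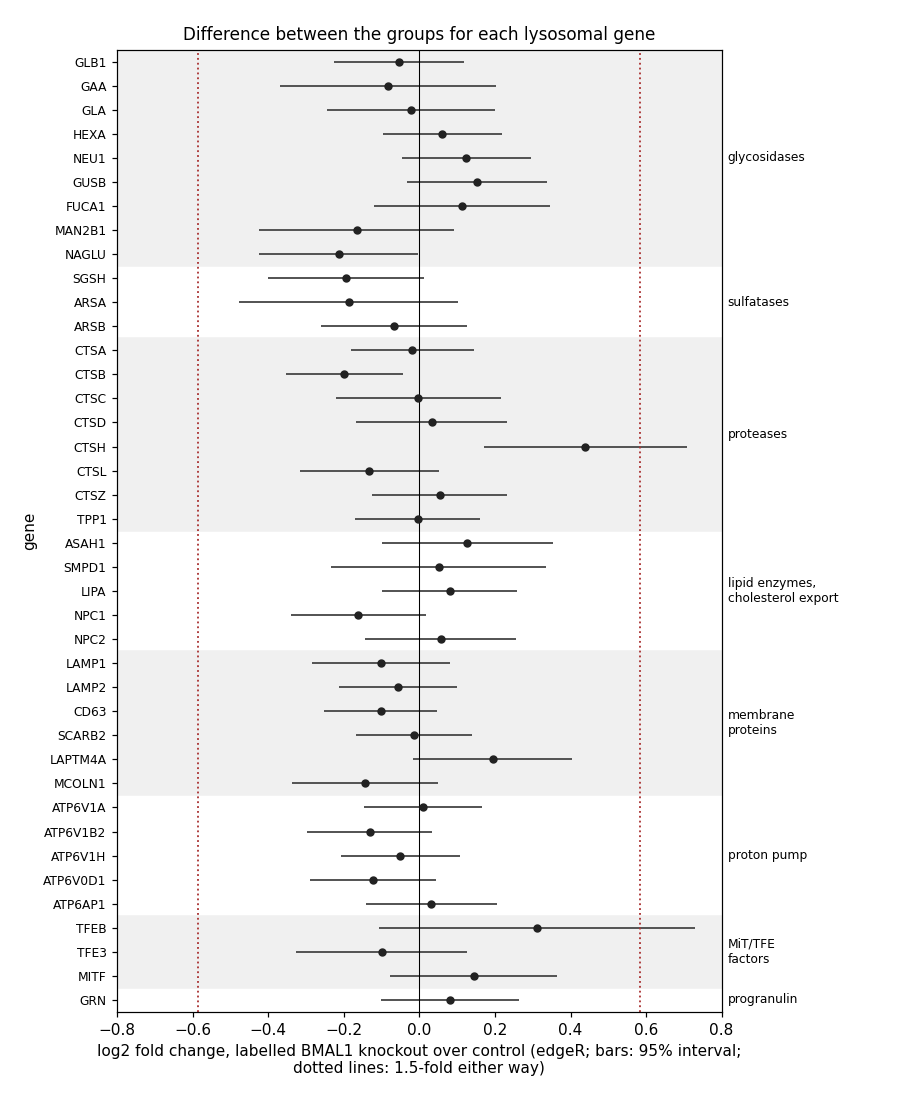
Log2 fold change of each of the 40 lysosomal genes (points) with its 95% interval from edgeR (bars), libraries labelled BMAL1 knockout over libraries labelled control, 3 each. The dotted lines mark 1.5-fold in either direction, and only the intervals of CTSH and TFEB reach past the upper line.

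GLB1 (ENSG00000170266.16), the β-galactosidase of the senescence stain, lies on the reverse strand of hg38 at chr3:32996609-33097202. GLB1 was measured at 54.1, 50.8 and 51.7 CPM in the control libraries and at 47.8, 52.3 and 50.7 CPM in the libraries labelled BMAL1 knockout. The groups overlapped, with the highest value in control replicate 1 and the lowest in knockout replicate 1. The means were 52.2 ± 1.72 CPM and 50.3 ± 2.26 CPM (SD, n = 3 each), and the fold change was 0.963 with a 95% interval from 0.855 to 1.08. The adjusted p of GLB1 was 0.784 (log2 fold change -0.05, standard error 0.079, edgeR with Benjamini-Hochberg correction). The log2 fold change stayed between -0.08 and -0.02 when each library was left out in turn. The paper reports increased senescence in BMAL1 knockdown and knockout lines of these cells, with quantified senescence-associated β-galactosidase staining. That stain reads enzyme activity and not transcript, so the GLB1 values here do not show whether staining differed. GLB1 shares 253 exonic bases with TMPPE on the same strand, and reads of that stretch could have been counted for either gene. On the opposite strand it shares 320 exonic bases with the pseudogene SEC13P1 and 34 with the pseudogene SUMO2P10.

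The glycosidases, which cleave sugar chains from glycoproteins, glycolipids and glycogen, differed little between the groups, and none of the 9 passed the test. Their median log2 fold change was -0.02, with 4 above and 5 below 0. CTSA, the protective protein that holds β-galactosidase and the sialidase NEU1 in a complex, was at 247, 238 and 235 CPM in the control libraries and 220, 245 and 246 CPM in those labelled BMAL1 knockout. NEU1 was at 49.6, 48.8 and 48.8 CPM and at 50.6, 53.7 and 56.2 CPM. NEU1 was thus higher in all 3 libraries labelled BMAL1 knockout than in any control library, but by a log2 fold change of only 0.12 (SE 0.079, adjusted p = 0.460, edgeR, Benjamini-Hochberg). The 3 partners of the complex had log2 fold changes of -0.05, -0.02 and 0.12, each with an interval that includes 0. NAGLU (chr17:42536241-42544449), which removes N-acetylglucosamine from heparan sulfate, had the lowest fold change of the 40 genes. It was at 21.7, 23.7 and 20.03 CPM in the control libraries and 17.9, 19.2 and 19.4 CPM in the others, without overlap. Its log2 fold change was -0.21 (SE 0.097, unadjusted p = 0.0472, adjusted p = 0.289, edgeR with Benjamini-Hochberg correction). GUSB, the β-glucuronidase, had the highest fold change of the group, 0.15 on the log2 scale (49.96 ± 3.11 and 55.5 ± 3.22 CPM, SD, n = 3 each). GAA, the acid α-glucosidase that breaks down glycogen, was at 65.75, 70.5 and 47.8 CPM in the control libraries and 51.4, 61.3 and 61.1 CPM in the others. Control replicate 3 lay below every library labelled BMAL1 knockout for this gene, while the other two control libraries lay above them all. The α-galactosidase GLA, the β-hexosaminidase subunit HEXA, the fucosidase FUCA1 and the mannosidase MAN2B1 had log2 fold changes of -0.02, 0.06, 0.11 and -0.17, with overlapping groups.

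The 3 genes for removal of sulfate groups were all below 0 and none passed the test, with a median log2 fold change of -0.19. SGSH, the heparan sulfamidase, was at 51.3, 50.0 and 41.7 CPM in the control libraries and 39.9, 42.1 and 43.0 CPM in those labelled BMAL1 knockout (log2 fold change -0.19, adjusted p = 0.328, edgeR, Benjamini-Hochberg). Its control replicate 3 lay among the libraries labelled BMAL1 knockout. ARSA, which acts on sulfatides, had a log2 fold change of -0.19, and ARSB, which acts on dermatan and chondroitin sulfate, had -0.07. Leaving out 1 library moved ARSA between -0.32 and -0.07 and ARSB between -0.11 and -0.000095. SGSH shares 230 exonic bases with CARD14 on the opposite strand.

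The 8 proteases held CTSH, the gene with the largest fold change of the 40, and CTSB, which lay on the other side of 0. CTSH (ENSG00000103811.18), an aminopeptidase and member of the papain family of cathepsins, lies on the reverse strand at chr15:78921058-78949574. The 250 bases before its RefSeq start, at chr15:78945047-78945296 on the reverse strand of GRCh38.p14, are shown because CTSH had the largest fold change. That start is also the canonical one in GENCODE, while the gene span given above reaches 4528 bases further upstream through other transcripts. Capitals mark the only match to CANNTG, the general form of the E-box, which starts 167 bases before the start and does not have the letters CACGTG.
CTSH upstream: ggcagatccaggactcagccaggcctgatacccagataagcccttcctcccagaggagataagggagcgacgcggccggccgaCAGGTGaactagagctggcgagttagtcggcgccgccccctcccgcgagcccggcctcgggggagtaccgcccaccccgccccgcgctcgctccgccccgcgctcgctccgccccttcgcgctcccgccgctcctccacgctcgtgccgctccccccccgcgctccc
The counts of CTSH were 623, 581 and 458 in the control libraries and 1210, 885 and 1144 in those labelled BMAL1 knockout. In CPM these were 23.2, 21.7 and 16.4 CPM against 28.3, 29.0 and 25.8 CPM, so that every library labelled BMAL1 knockout lay above every control library. The widest gap within a group was that of control replicate 3. The log2 fold change was 0.44 (SE 0.12, 95% interval 0.17 to 0.71), with an unadjusted p of 0.00402 and an adjusted p of 0.0891 in edgeR after Benjamini-Hochberg correction. CTSH therefore did not pass the threshold over all genes. It did with DESeq2 (adjusted p = 0.0383, where 1.8% of the genes tested were called higher) and when edgeR was run after removal of a trend with GC content from every library (adjusted p = 0.0314, where 2.63% were called higher). Without each library in turn, the log2 fold change ran from 0.30, without control replicate 3, to 0.54, without control replicate 1, and the adjusted p from 0.0852 to 0.237.

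CTSB (ENSG00000164733.23; chr8:11842524-11869533), an abundant cysteine protease, differed in the other direction. It was at 149, 147 and 142 CPM in the control libraries and 123, 125 and 133 CPM in those labelled BMAL1 knockout. All 3 of the latter lay lower, and the spread within each group was small. The log2 fold change of CTSB was -0.20 (SE 0.071), with an unadjusted p of 0.0165 and an adjusted p of 0.179 (edgeR, Benjamini-Hochberg). With the GC trend removed its log2 fold change was -0.21 and the adjusted p 0.0349, where 5.66% of all genes were called lower. The other cathepsins lay closer to 0. The aspartic protease CTSD was at 237, 234 and 212 CPM and at 203, 250 and 246 CPM. CTSZ, the most abundant protease in CPM, was at 283, 288 and 245 CPM and at 270, 294 and 283 CPM. CTSL, an endopeptidase close in sequence to CTSV, had a log2 fold change of -0.13, and CTSC, which activates the granule serine proteases, had -0.0030. TPP1, a tripeptidyl peptidase, was the steadiest of the 40 genes, between 45.7 and 47.4 CPM in all 6 libraries, with a log2 fold change of -0.01. CTSA overlaps NEURL2 and PLTP, and CTSZ overlaps NELFCD, on the opposite strands.

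**Figure D2:**
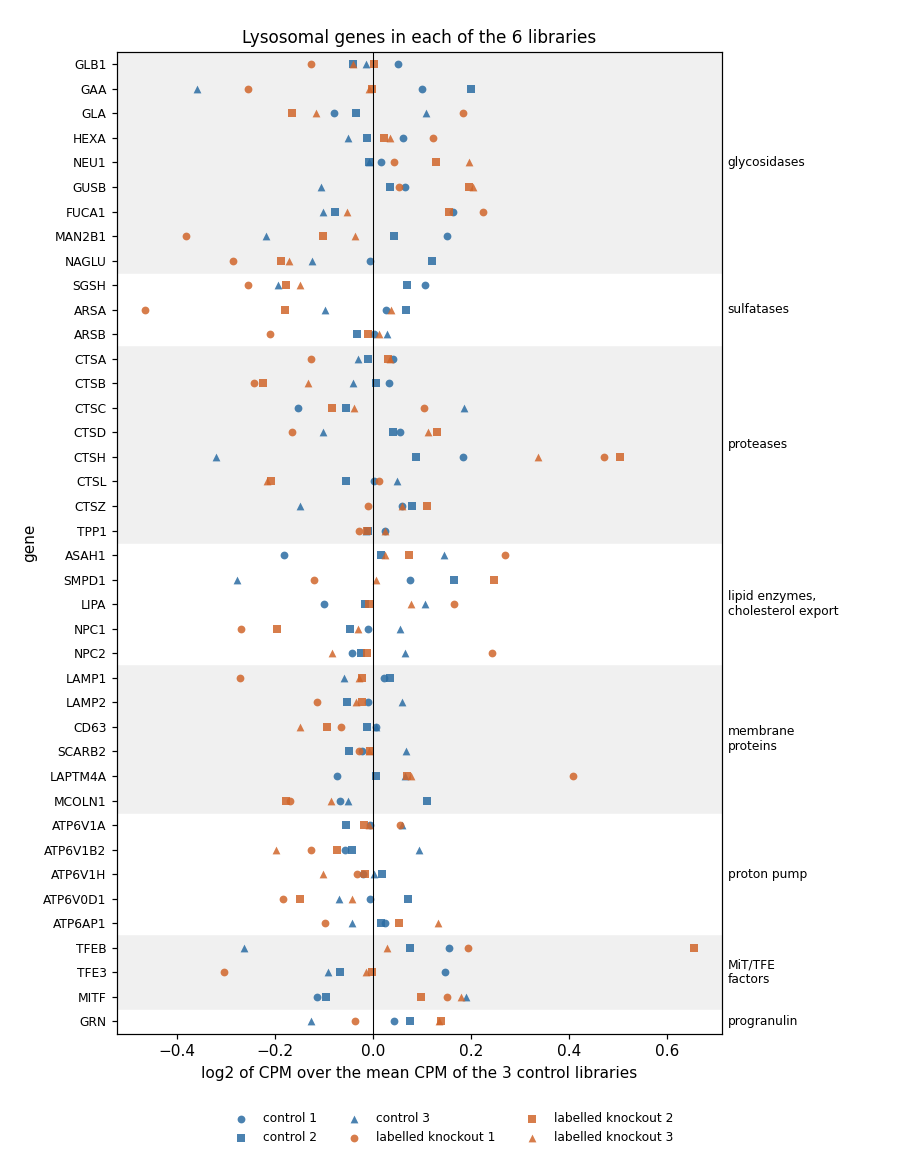
Log2 of the CPM of each gene in each library over the mean CPM of the 3 control libraries. Circles, squares and triangles mark replicates 1, 2 and 3. The points of CTSH labelled BMAL1 knockout all lie to the right of its control points and those of CTSB to the left, while for most other genes the colours mix.

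None of the 5 genes for lipid breakdown and cholesterol export passed the test, and 4 of them lay above 0, with a median log2 fold change of 0.06. NPC1, which moves cholesterol out through the lysosomal membrane, was the exception. It was at 102, 99.6 and 107 CPM in the control libraries and 85.3, 89.8 and 101 CPM in those labelled BMAL1 knockout, and knockout replicate 3 reached into the range of the control libraries. Its log2 fold change was -0.16 (SE 0.082, adjusted p = 0.343, edgeR, Benjamini-Hochberg). NPC2, the soluble protein that hands cholesterol to NPC1, was at 108, 110 and 117 CPM and at 132, 111 and 106 CPM, where knockout replicate 1 alone was high. The log2 fold changes of the acid lipase LIPA, the acid ceramidase ASAH1 and the acid sphingomyelinase SMPD1 were 0.08, 0.13 and 0.05. NPC1 shares 619 exonic bases with RMC1 on the opposite strand.

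The 6 membrane proteins also had no gene past the test, although the groups did not overlap for 3 of them (23.3% of all genes). CD63, a tetraspanin of late endosomes and exosomes, was at 278, 274 and 278 CPM in the control libraries and 264, 259 and 250 CPM in those labelled BMAL1 knockout. This small difference, -0.10 on the log2 scale, exceeded the SD of either group (2.03 and 7.498 CPM) but had an adjusted p of 0.490 (edgeR, Benjamini-Hochberg). MCOLN1, the lysosomal calcium channel TRPML1, had a log2 fold change of -0.14, with 28.4, 32.2 and 28.8 CPM against 26.5, 26.3 and 28.1 CPM. LAPTM4A, a small transmembrane protein of late endosomes, was at 230, 243 and 253 CPM and at 321, 254 and 255 CPM. All 3 libraries labelled BMAL1 knockout were higher than the control libraries, but replicates 2 and 3 lay close to control replicate 3. The log2 fold change of LAPTM4A, 0.19 (SE 0.097, adjusted p = 0.337, edgeR, Benjamini-Hochberg), went to 0.07 without knockout replicate 1. LAMP1, LAMP2 and SCARB2, the major glycoproteins of the limiting membrane, had log2 fold changes of -0.10, -0.06 and -0.01. LAMP1 was at 294, 296 and 277 CPM and at 239, 284 and 283 CPM, and here too knockout replicate 1 stood apart from the other libraries of its group.

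The 5 proton pump genes kept within a narrow band, with log2 fold changes from -0.13 to 0.03 and no gene past the test. ATP6V1A, the catalytic subunit of the cytosolic sector, was at 140, 136 and 147 CPM and at 146, 139 and 140 CPM, a log2 fold change of 0.01 with a 95% interval from -0.15 to 0.17. ATP6V1B2, the non-catalytic partner in that sector, was at 129, 130 and 143 CPM in the control libraries and 123, 127 and 117 CPM in those labelled BMAL1 knockout. The groups of ATP6V1B2 did not overlap, although knockout replicate 2 and control replicate 1 lay close together. ATP6V1H, ATP6V0D1 and the accessory protein ATP6AP1 had log2 fold changes of -0.05, -0.12 and 0.03, with overlapping groups.

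The transcription factors of the compartment did not pass the test either. TFEB (chr6:41683978-41736259) had the fewest reads of the 40 genes, 123, 116 and 96 in the control libraries and 201, 198 and 186 in those labelled BMAL1 knockout. In CPM these are 4.58, 4.34 and 3.43 against 4.71, 6.49 and 4.20, so the groups overlapped and knockout replicate 2 alone was high. The log2 fold change of TFEB was 0.31 (SE 0.19, adjusted p = 0.449, edgeR with Benjamini-Hochberg correction), and 0.11 without knockout replicate 2. Its 95% interval, from -0.11 to 0.73 on the log2 scale, was the widest among the 40 genes. TFE3 was at 55.02, 47.4 and 46.6 CPM and at 40.2, 49.6 and 49.2 CPM (log2 fold change -0.10, adjusted p = 0.683, same test). MITF was at 21.4, 21.6 and 26.4 CPM and at 25.7, 24.7 and 26.2 CPM (log2 fold change 0.14, adjusted p = 0.513, same test). The groups overlapped for both genes, with TFE3 lowest in knockout replicate 1 and MITF highest in control replicate 3. These values are transcript levels, and activity of MiT/TFE factors is known to be set largely by phosphorylation and nuclear entry, which were not measured here. GRN, which encodes progranulin, a precursor of lysosomal granulins, was at 163 ± 12.0 and 172 ± 11.7 CPM (SD, n = 3 each), 0.08 apart on the log2 scale.

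The promoters of these genes were read for the E-box, since both the MiT/TFE factors and BMAL1 with CLOCK are known to bind it. RefSeq promoter windows, from 250 bases before to 50 after the start on GRCh38.p14, were found for 30 of the 40 genes, and the first listed was taken where a gene had several. For 27 of them that start is the canonical one of GENCODE v44. The windows of GLB1, LIPA and NPC2 lie elsewhere, that of GLB1 inside the gene over 62 coding bases of its first exon, so that they do not show the canonical promoter. The core CACGTG stood in 8 of the 30 (26.7%), where 7.43% of all 27305 windows held it. The 8-letter TCACGTGA stood in 5 (16.7% beside 1.04%), and the longer palindrome with a further G before and C after it in 2 (6.67% beside 0.381%). Each motif reads the same on both strands, and each longer form contains the shorter. No test was made of these shares. The CLEAR element is known from promoters of such genes, as said above, so a higher share in this list is not a result of these samples. With every listed start counted, 9 of the 30 genes held the core, ARSB being the addition. Stretches of 30 bases around the motif are shown for each of the 8 genes, because both kinds of factor are known to bind this motif. Binding to these stretches was not measured. Capitals mark the longest of the 3 forms present, and each stretch is written 5′ to 3′ on the strand of its gene.
GAA, chr17:80101493-80101522: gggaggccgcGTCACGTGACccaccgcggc
MCOLN1, chr19:7522598-7522627: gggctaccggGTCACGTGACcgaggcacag
CTSA, chr20:45891298-45891327: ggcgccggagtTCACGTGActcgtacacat
LAMP1, chr13:113297199-113297228: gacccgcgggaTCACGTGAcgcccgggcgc
ATP6V0D1, chr16:67481199-67481228: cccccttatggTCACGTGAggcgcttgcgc
NEU1, chr6:31862930-31862959: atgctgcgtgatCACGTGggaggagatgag
CTSD, chr11:1763957-1763986: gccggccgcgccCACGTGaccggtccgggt
CD63, chr12:55729172-55729201: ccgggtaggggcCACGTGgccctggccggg
GAA carried the full palindrome at a further position, MCOLN1 and LAMP1 the 8-letter form, and LAMP1 and CTSA the core alone. The 8 genes with the core had log2 fold changes from -0.14 for MCOLN1 to 0.12 for NEU1, with a median of -0.09, 2 above and 6 below 0. The other 22 had a median of 0.04, from -0.17 to 0.44, with 12 above and 10 below 0. The 5 genes with the 8-letter form all lay below 0, between -0.14 and -0.02, and none of them passed the test. Of these, CTSA reached 0.031 and GAA 0.028 when a library was left out. The exon GC content of these 5 is between 52.3% and 64.0%, and the fold changes of GC-rich genes lay lower among the 40 (r = -0.16). Its part in the difference was not tested.

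Levels between genes were compared per kilobase of annotated exon. This measure takes the union of all exons that GENCODE v44 gives a gene, so that long and rarely used exons lower it. LAPTM4A was highest, with a mean of 168 CPM per kilobase over the 6 libraries (range 149 to 208), followed by CD63 with 110 (range 103 to 115). The range of neither touched that of the gene next in order. LAMP1, GRN, NPC2 and CTSD followed between 40.4 and 48.6 CPM per kilobase, and neighbours among them overlapped. GLB1 was placed in the middle of the order with 11.8 CPM per kilobase (range 11.03 to 12.5), and overlapped its neighbours ATP6V0D1 and TFE3. CTSA, its partner, reached 27.6 CPM per kilobase, above GLB1 in every library, while NEU1 at 10.6 overlapped GLB1. Among the transcription factors TFE3 was highest with 11.4 CPM per kilobase, MITF had 3.28 and TFEB, the lowest of all 40, had 0.688, with ranges that did not meet. CTSH, the gene with the largest fold change, was next to lowest with 1.75 CPM per kilobase. Of the 39 neighbouring pairs in this order, 29 overlapped and 10 did not.

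**Figure D3:**
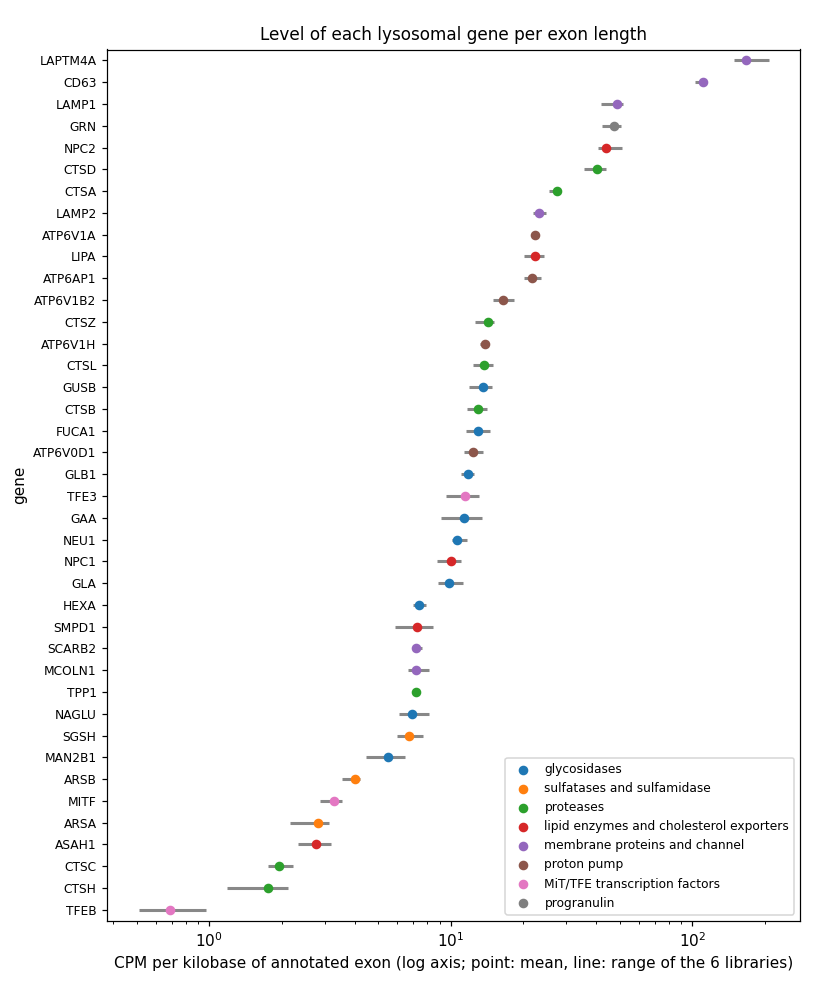
CPM per kilobase of annotated exon of each gene on a log axis. Points are means and lines the range over the 6 libraries, coloured by role; the membrane proteins LAPTM4A and CD63 lead and TFEB is last.

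The 40 genes together took 0.410%, 0.406% and 0.396% of the counts in the control libraries and 0.394%, 0.417% and 0.414% in those labelled BMAL1 knockout. Control replicate 3 and knockout replicate 1 were the lowest of their groups, and the groups overlapped. The same pair of libraries departed most from the others gene by gene. Of the 40 genes, knockout replicate 1 held the highest or the lowest value for 23, control replicate 3 for 18, and the other 4 libraries for 8 to 13 each. Their departures followed exon GC content. Across the 40 genes, the deviation of log2 CPM from the mean of the 6 libraries correlated with exon GC content at r = 0.62 in control replicate 1, 0.62 in control replicate 2 and -0.60 in control replicate 3. In the libraries labelled BMAL1 knockout, r was -0.56, 0.28 and 0.27. These correlations are across genes, which are not independent replicates, and the deviations of a gene sum to 0 over the libraries. Over the 13578 genes with a known GC content the same signs were found, with r between -0.35 and 0.20. The 12 lysosomal genes with under 45% GC, among them LAPTM4A, ASAH1 and GLA, lay at a median of 0.08 in control replicate 3 and 0.07 in knockout replicate 1 (log2). The 16 genes with 55% GC or more, among them GAA, ARSA and CTSD, lay at -0.08 and -0.13 there.

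The GC trend thus ran in opposite directions within each group, and weakly between the groups. The correlation of the log2 fold change with exon GC content over the 40 genes was -0.16, and the median log2 fold change was -0.01 for the 12 genes low in GC and -0.09 for the 16 high in GC. When the trend was removed from each library, the standard error of CTSB went from 0.071 to 0.053 and that of CTSH from 0.12 to 0.10. The number of the 40 genes with an unadjusted p under 0.05 went from 3 to 10, while over all genes the share with such a p was 25.4% in that fit. CTSH (higher) and CTSB (lower) passed an adjusted p of 0.05 in edgeR's test, where 8.29% of all genes did. In that fit SGSH, NAGLU and ATP6V1B2 had adjusted p-values of 0.0592, 0.0663 and 0.0692, all below 0 in fold change (edgeR, Benjamini-Hochberg). That of GLB1 was 0.466, with a log2 fold change of -0.07. With the replicate number as a block added to the removal of the GC trend CTSH alone was called, where 6.75% of all genes were (2.05% higher and 4.7% lower). What caused the trend in these libraries was not tested.

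**Figure D4:**
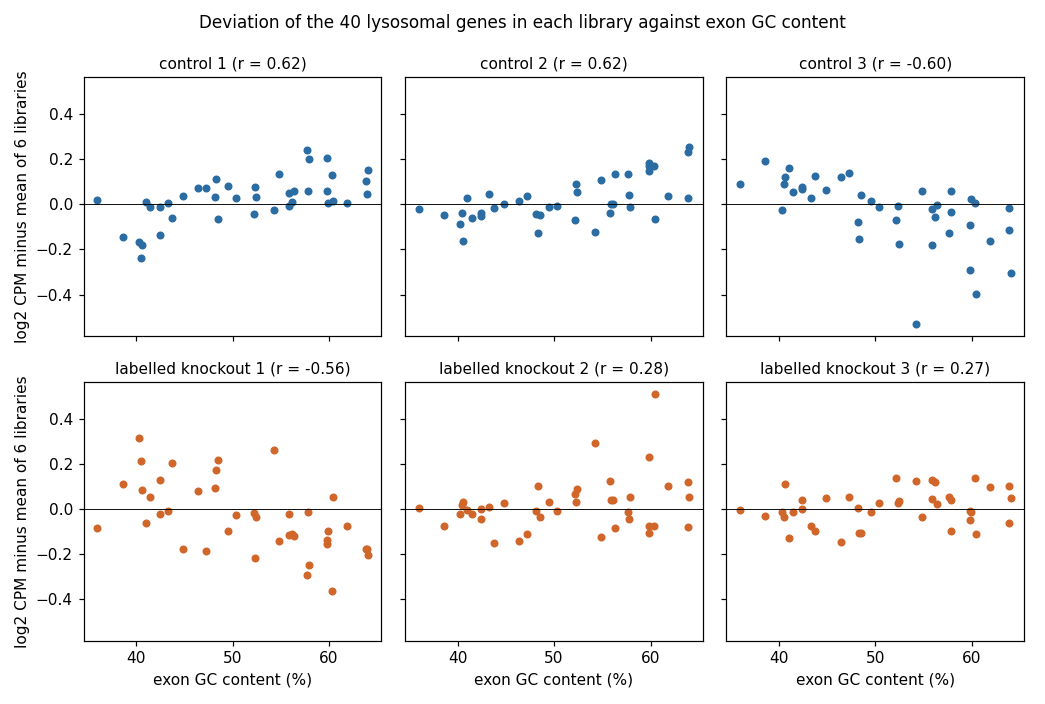
Deviation of log2 CPM from the mean of the 6 libraries against exon GC content, 1 point for each of the 40 genes and 1 panel for each library. The points slope upward in control replicates 1 and 2 and downward in control replicate 3 and in replicate 1 labelled BMAL1 knockout.

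Beyond the 40 genes, 157 further genes of the lysosomal pathway were listed, of which 145 were tested, and edgeR called 1 higher and 0 lower (adjusted p under 0.05), beside 1.08% and 1.43% of all genes. At an unadjusted p under 0.05 there were 8 higher and 9 lower, which is 11.7% of the 145 beside 16.9% of all genes. The gene called was LAMP3, a LAMP family member known from mature dendritic cells (chr3:183122215-183163839). It had 29, 45 and 40 counts in the control libraries and 188, 116 and 163 in those labelled BMAL1 knockout, or 1.08, 1.68 and 1.43 CPM against 4.40, 3.80 and 3.68 CPM. The groups of LAMP3 were far apart, at a level well under that of its relatives LAMP1 and LAMP2. Its log2 fold change was 1.501 (SE 0.20, adjusted p = 0.00315, edgeR with Benjamini-Hochberg correction), between 1.35 and 1.66 without each library in turn, with an adjusted p under 0.05 in all 6 of these fits.

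None of the other members of the related lists passed the test. Of 32 further enzymes and cofactors, 21 lay above 0, with a median log2 fold change of 0.04. PSAP, the precursor of the saposins that assist sphingolipid enzymes, was at 605 ± 18.2 and 736 ± 53.6 CPM (SD, n = 3 each), with a log2 fold change of 0.28 and an adjusted p of 0.0806 (edgeR, Benjamini-Hochberg). CTSV, a close relative of CTSL, had 0.41 and an adjusted p of 0.0649 (same test). Of 17 further V-ATPase subunits tested, 8 lay above 0, and the median was -0.02. The 26 further membrane proteins and transporters had a median of -0.03 and the 10 genes for sorting and activation of the enzymes -0.05, among them IGF2R, the larger mannose 6-phosphate receptor, with -0.27 (483 ± 18.2 and 400.4 ± 64.8 CPM, adjusted p = 0.222, same test). IGF2R was lowest in knockout replicate 1, at 326 CPM, and its log2 fold change was -0.14 without that library. Of 26 genes for the mTORC1 scaffold, which keeps TFEB in the cytosol, and other regulators of TFEB, 10 lay above 0. At an unadjusted p under 0.05, 2 of them were higher and 3 lower, or 19.2% beside 16.9% of all genes. RRAGD, a Rag GTPase of that scaffold, had the highest fold change there, 0.56 (4.02 ± 0.481 and 5.94 ± 0.365 CPM, adjusted p = 0.0730, same test). DEPTOR, an inhibitor of mTOR, had the lowest, -0.51 (adjusted p = 0.274), which was -0.18 without control replicate 3. NPRL3, of the complex that restrains the Rag GTPases, had -0.28 (adjusted p = 0.0967), and the mTORC1 subunit RPTOR had -0.26 (adjusted p = 0.151). Among 31 autophagy genes the median was -0.02. RAB7A, which directs late endosomes to lysosomes, was at 359 ± 7.47 and 296 ± 2.87 CPM, a log2 fold change of -0.28 with an adjusted p of 0.0570, and EPG5, a tether for autophagosomes, had -0.29 and 0.0615 (same test). Cystatins, which inhibit cathepsins, were represented by CST3 and CSTB, at 0.05 and -0.06, and the GLB1 relatives by GLB1L, at 0.01. PSAP, CTSV, IGF2R, RRAGD, DEPTOR, NPRL3, RPTOR, RAB7A and EPG5 were singled out after their values were seen. With DESeq2, 3 genes of these lists were called higher (LAMP3, PSAP, CTSV) and 3 lower (RAB7A, EPG5, NPRL3), in all 4.20% beside 4.47% of all genes.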

How the data were processed

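Per the labels and methods, the authors removed reads of poor quality or with adapter sequence, mapped those left to hg38 and counted uniquely mapped reads, naming fastp 0.20.1 and HISAT2 2.0.4. The authors deposited whole-number counts per gene, not normalized. Annotation and strandedness are not given in the sources used here, so genes that overlap another (18 of the 40 share exonic bases) and genes with pseudogene copies, such as GUSB and CTSL, are uncertain. Columns were matched to samples by name.

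edgeR 4.0.16 in R 4.3.3 (filterByExpr, TMM, robust quasi-likelihood fit, two-sided) gave CPM, log2 fold changes, 95% intervals and p-values, adjusted by Benjamini-Hochberg over all 14860 loci kept. Log2 CPM used a prior count of 2. Positions, exon lengths and GC content came from GENCODE v44 on hg38, and promoters from RefSeq (GRCh38.p14). Nothing states that the replicates were separate cultures, so p-values measure the spread between these samples. The fits were tested on simulated data, where the share of false calls exceeded the threshold. It was largest in edgeR when a GC trend was simulated and not removed. That simulated trend was the same in every library labelled BMAL1 knockout and absent from the control libraries. In the data the trend ran in opposite directions within each group. The simulation therefore does not give the share of false calls in the reported fit.

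The members and lists were chosen with earlier results of these data known. Named genes were GLB1, TFEB, TFE3, MITF, members under an unadjusted p of 0.05, the extremes of each role and related genes under an adjusted p of 0.05, and others where stated. Alternatives were other filters, size factors, DESeq2 1.42.0, limma-voom (limma 3.58.1), a replicate block, removal of each library's GC trend (smoothing spline, 5 degrees of freedom), thinning to the smallest total and leaving out each library.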

Additional observations from a re-analysis of the deposited data

How the results depend on the processing

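Of the 40 lysosomal genes, 0 were called in either direction by edgeR with any library left out, and 1 was called higher with DESeq2, with the GC trend removed and with the GC trend removed beside a replicate block, CTSH each time. With the GC trend removed 1 was also called lower, CTSB, whose adjusted p ran from 0.0349 to 0.447 over all alternatives (Benjamini-Hochberg). The median over the 40 genes was 0.013 with scaling by library size only, and -0.065 with the GC trend removed, with or without the block, where the median over all genes was 0.038, -0.024 and -0.025 beside 0.0099 in the reported fit. Among the related lists 2 genes were higher with library size only, and 3 with DESeq2, with the GC trend removed and with block and GC trend together; 3 were lower with DESeq2, 9 with the GC trend removed and 6 with both. In all, 4.20%, 8.28% and 6.21% of these genes were called in those 3 fits, beside 4.47%, 8.29% and 6.75% of all genes. With a library left out, 1 to 2 were higher and 0 to 2 lower. LAMP3 was called higher each time. Without knockout replicate 1, PSAP was also called higher, and RAB7A and EPG5 were called lower. Without knockout replicate 3, and with library size only, CTSV was called higher beside LAMP3. In each fit with a library left out, and with library size only, the share of related genes called was below that of all genes. The log2 fold change of BMAL1 ran from 0.50 to 0.70 with a library left out.

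Genes near 0 changed sign, none of them past the test. With library size only, which moved the median of all genes up as given above, GLA was at 0.0038, CTSA at 0.011, CTSC at 0.025, TPP1 at 0.024 and SCARB2 at 0.015. CTSC was at 0.0021 with no filter on low counts, 0.00069 with at least 10 counts in every library, 0.0028 with limma-voom and 0.00098 with the replicate block, and TPP1 at 0.0016 after thinning. CTSD was at -0.0061 and ATP6V1A at -0.045 with the GC trend removed, in both fits. With a library left out the log2 fold changes ran, lowest to highest, as GAA -0.23 to 0.028, GLA -0.14 to 0.042, CTSA -0.046 to 0.031, CTSC -0.075 to 0.103, CTSD -0.0196 to 0.12, CTSZ -0.013 to 0.096, TPP1 -0.0202 to 0.0061, SMPD1 -0.068 to 0.14, NPC2 -0.0496 to 0.12, SCARB2 -0.038 to 0.023, ATP6V1A -0.017 to 0.044, ATP6AP1 -0.022 to 0.091. MAN2B1, LAMP1, TFE3 and ASAH1 kept their sign over ranges of -0.26 to -0.069, -0.14 to -0.027, -0.15 to -0.0087 and 0.043 to 0.21. The same held for HEXA (0.028 to 0.091), FUCA1 (0.051 to 0.20), CTSL (-0.21 to -0.093) and LIPA (0.031 to 0.14). It also held for LAMP2 (-0.082 to -0.023), MCOLN1 (-0.18 to -0.084) and ATP6V1B2 (-0.16 to -0.079). ATP6V1H (-0.067 to -0.025), MITF (0.088 to 0.25) and GRN (0.024 to 0.14) kept their sign as well. Apart from the scaling, the cause was not tested.

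Same-numbered libraries did not deviate together (correlations of -0.090, -0.052 and -0.0047), so the numbers were not taken as pairs. With the replicate block edgeR called 277 genes in place of 373, and 0 of the 40. Limits are the 3 libraries a group and a BMAL1 transcript that was higher with the knockout label, while its protein was not measured here. Further limits are clones and genotype that cannot be told apart, and an annotation and strand setting not given in the sources used here. Among the 40 genes TFEB had the fewest reads, at 96 to 201 a library, and LAMP3 of the related lists had 29 to 188.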
